A study of Homo sapiens with 12 samples.

Results

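The genes described here carry a dividing cell from the end of DNA replication through mitosis. They are 50 listed symbols: CDK1 with its cyclins and activators, the mitotic kinases, the chromosomal passenger complex, the spindle checkpoint, the kinetochore, spindle motors, proteins of the midzone and of cytokinesis, the anaphase-promoting complex with its substrates, and general proliferation genes. Of the 50 listed symbols, 49 had a row in the deposited table, where CDK1 appears under its old name CDC2, and all 49 were detected and tested among 12465 genes. The rule for the list is the known function of each gene, and no measured value entered it. The study asked what changes in acute lymphoblastic leukemia (ALL) cells that carry short hairpin RNAs (shRNAs) against CREB, a transcription factor that binds cyclic AMP response elements. Jurkat and Molt4 are T-cell ALL (T-ALL) lines, and Nalm6 and RS4;11 are B-cell precursor ALL (BCP-ALL) lines. Each of the 4 lines was transduced with a lentiviral pLKO1-mCherry vector that held a scrambled sequence (shControl), shCREB2 or shCREB3, and stably transduced cells were expanded before RNA was isolated. All 12 cultures, controls included, thus carried an integrated vector. Every combination of line and vector was run on 1 Illumina array, so the cell line is the replicate (4 lines per vector), and nothing in the labels says that a vector was introduced more than once into a line.

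Entry into mitosis depends on CDK1 bound to cyclin A or cyclin B, which CDC25 phosphatases switch on. The spindle checkpoint then holds the anaphase-promoting complex (APC/C) inactive until every kinetochore is attached, after which separase is freed and the chromosomes part. Most of these genes are transcribed late in the cell cycle, so their mRNA in a culture rises and falls with the share of cells in G2 and mitosis. In RNA from a whole culture, fewer cells in G2 and mitosis and less of an mRNA in each such cell cannot be told apart.

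Many promoters of late cell cycle genes hold a cell cycle genes homology region (CHR, letters TTTGAA, bound by the MuvB complex) and CCAAT boxes (bound by NF-Y). A promoter bound by CREB typically holds a cyclic AMP response element (CRE, letters TGACGTCA). RefSeq windows on build GRCh38.p14, from 250 bases before to 50 bases after the start of a gene, were found for 41 of the 49 genes and were searched on both strands, the first listed window of each gene being used. No window was given for AURKA, BIRC5, BUB3, TTK, TPX2, UBE2C, FOXM1 or FAM64A. The CHR letters lay in 29 of 41 windows (70.7%) and in 15.4% of the 27305 windows of all genes. Between 50 bases before and 20 bases after the start, they lay in 20 of 41 windows (48.8%) and in 3.59% of all windows. CCAAT lay in 32 of 41 (78.0%) and in 35.7% of all windows, and both motifs in 24 (58.5%) and in 6.08%. The full CRE lay in 4 of 41 windows (9.8%), those of CCNA2, CENPE, NDC80 and PRC1, and in 1.98% of all windows. Its shorter form TGACG, which lies inside the full CRE, was present in 18 of 41 (43.9%) and in 25% of all windows. A match describes the letters only and does not show that a factor binds there.

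Promoters of 6 genes are printed because the results below turn on them or because they hold the full CRE. Each is written 5′ to 3′ on the strand of its gene. Capitals mark TTTGAA (or its reverse complement TTCAAA) and CCAAT (or ATTGG) for CDC2, KIF11, HMMR and CDCA8, the CRE for CENPE, and the CRE and CCAAT for CCNA2. In CDCA8 a CHR and a reversed CCAAT box share 1 base, the last A of the CHR.
CDC2 (CDK1), chr10:60778081-60778380, plus strand: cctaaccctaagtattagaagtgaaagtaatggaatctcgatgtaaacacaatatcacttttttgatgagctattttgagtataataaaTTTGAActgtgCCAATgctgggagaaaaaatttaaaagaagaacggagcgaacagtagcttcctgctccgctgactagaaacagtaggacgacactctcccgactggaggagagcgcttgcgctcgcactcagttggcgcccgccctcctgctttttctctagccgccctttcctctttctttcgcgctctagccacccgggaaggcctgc
KIF11, chr10:92592880-92593179, plus strand: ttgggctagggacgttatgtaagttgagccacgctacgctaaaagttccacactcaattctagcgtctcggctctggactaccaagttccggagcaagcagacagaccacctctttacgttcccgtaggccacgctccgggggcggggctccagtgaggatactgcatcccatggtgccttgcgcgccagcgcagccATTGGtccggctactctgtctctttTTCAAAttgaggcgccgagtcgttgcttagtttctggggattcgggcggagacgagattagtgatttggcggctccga
HMMR, chr5:163460382-163460681, plus strand: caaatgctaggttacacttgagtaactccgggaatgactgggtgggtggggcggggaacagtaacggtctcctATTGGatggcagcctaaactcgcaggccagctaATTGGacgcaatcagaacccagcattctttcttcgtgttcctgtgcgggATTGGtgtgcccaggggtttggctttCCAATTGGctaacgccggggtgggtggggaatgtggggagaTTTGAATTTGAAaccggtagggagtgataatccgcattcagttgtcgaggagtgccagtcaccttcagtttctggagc
CDCA8, chr1:37692266-37692565, plus strand: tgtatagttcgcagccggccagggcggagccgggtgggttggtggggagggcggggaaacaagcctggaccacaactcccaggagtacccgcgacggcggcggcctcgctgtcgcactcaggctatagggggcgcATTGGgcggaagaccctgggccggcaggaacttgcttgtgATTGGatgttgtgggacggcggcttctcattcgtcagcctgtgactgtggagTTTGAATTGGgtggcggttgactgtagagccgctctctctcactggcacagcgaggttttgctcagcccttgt
CENPE, chr4:103198294-103198593, minus strand: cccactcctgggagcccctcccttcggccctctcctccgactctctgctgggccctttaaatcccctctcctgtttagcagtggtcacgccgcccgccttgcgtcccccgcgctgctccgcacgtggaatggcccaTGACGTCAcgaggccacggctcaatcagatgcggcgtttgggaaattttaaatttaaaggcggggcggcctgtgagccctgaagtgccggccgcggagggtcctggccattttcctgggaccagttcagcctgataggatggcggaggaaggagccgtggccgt
CCNA2, chr4:121823834-121824133, minus strand: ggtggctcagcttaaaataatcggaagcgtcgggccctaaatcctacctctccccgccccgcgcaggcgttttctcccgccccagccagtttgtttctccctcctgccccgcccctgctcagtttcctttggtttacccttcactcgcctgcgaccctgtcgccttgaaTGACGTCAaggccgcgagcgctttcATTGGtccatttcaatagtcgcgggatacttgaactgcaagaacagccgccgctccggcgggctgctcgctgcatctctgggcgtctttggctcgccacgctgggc

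Lymphoid markers followed the lineage of the cell line labels, and they do not tell the 2 lines of a lineage apart. All 10 T-lymphoid markers were detected on the 3 arrays of Jurkat and of Molt4, against 2 in Nalm6 and 4 in RS4;11. B-lymphoid markers were detected for 9 of 10 genes in Nalm6 and 8 in RS4;11, against 3 in Jurkat and 5 in Molt4, with PAX5 not detected in any line. CREB1, the target of both shRNAs, was lower at the mRNA level on the shCREB2 array of RS4;11, and within 0.01 of its control or above it on the other 7 shCREB arrays: against shControl its log2 signal changed by -0.01 in Jurkat, 0.32 in Molt4, 0.31 in Nalm6 and -0.29 in RS4;11 with shCREB2, and by 0.16, 0.46, 0.28 and 0.24 with shCREB3. The study assessed the knockdown on CREB protein, which arrays do not measure, and the vectors are named here as in the labels. One array stood apart from the rest: shCREB2 in Nalm6 correlated at 0.98 with its most similar array, and every other array reached at least 0.99. Its 14816 detected probes lay inside the range of the 12 arrays (14219 to 15559), and its 95th percentile of raw signal, 952, was the lowest (984 to 1294 on the others). The part of these properties in the results of that array was not tested. For genes called with that array, values without it stand beside those with it, as do the main counts past the test and medians.

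With shCREB2, the G2/M and mitosis genes showed 2 patterns. FAM64A, AURKA, KIF11, CDC2 and CDC25C fell to between 41% and 74.1% of control and were lower in all 4 lines. In Nalm6 all 49 of 49 genes lay below shControl, most of them with little or no such shift in the other lines. With shCREB3 a different gene, CDCA8, a subunit of the chromosomal passenger complex, was past the test, and most of the 49 genes lay close to shControl. Changes are given as differences of log2 quantile-normalized signals, so that -1 is 50% of the control level, and called changes have an adjusted p under 0.05 over all 12465 genes (limma).

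On single arrays, the number of the 49 genes below shControl of the same line was close to that among all genes tested in most cultures. With shCREB2 it was 25 in Jurkat (46.1% of all genes were lower there), 37 in Molt4 (46.9%), 49 in Nalm6 (47.5%) and 23 in RS4;11 (48.7%). With shCREB3 it was 18 in Jurkat (48.2%), 26 in Molt4 (47.6%), 24 in Nalm6 (49.7%) and 27 in RS4;11 (49.8%). The median change of the 49 genes was -0.8 with shCREB2 in Nalm6 and -0.12 with shCREB2 in Molt4, and within 0.04 of 0 on the other 6 shCREB arrays. The median of all genes lay within 0.02 of 0 on every array. With 1 array per line and vector these counts have no test.

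**Figure D1:**
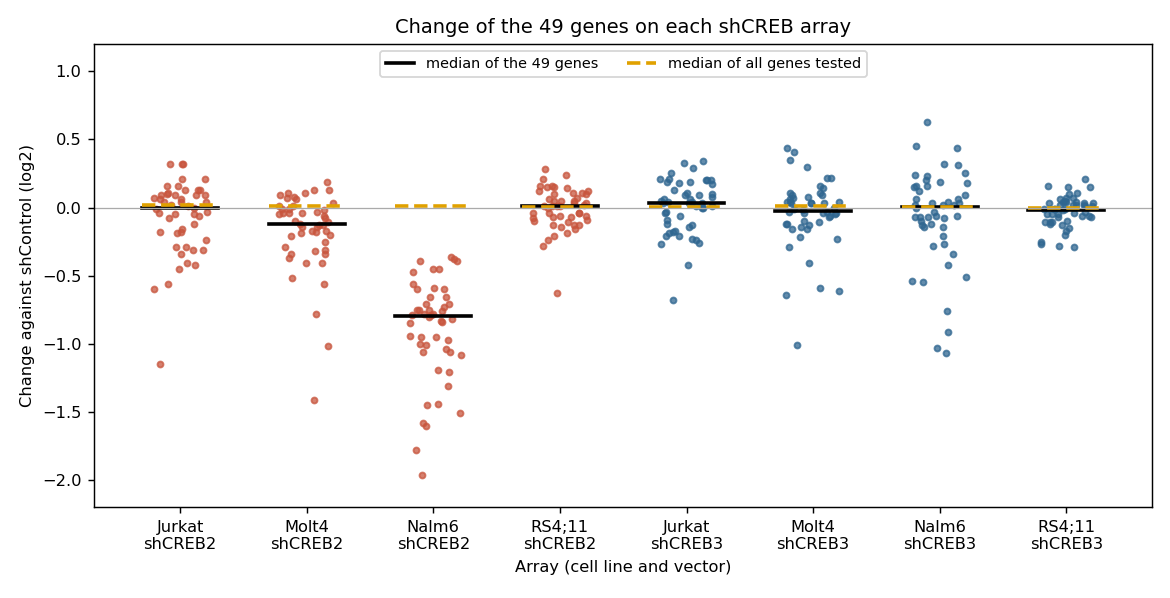
Change against shControl of the same line (log2, vertical axis) for the 49 G2/M and mitosis genes on each of the 8 shCREB arrays (horizontal axis). Each point is 1 gene, black bars are the median of the 49 genes and dashed yellow bars the median of all genes tested. On the shCREB2 array of Nalm6 all points lie below 0, with a median of -0.8.

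In Nalm6 with shCREB2, 42 of the 49 genes (85.7%) were lower by more than 0.5, against 8.13% of all genes, and 16 were lower by more than 1. The lowest values were those of FAM64A (-1.96), AURKA (-1.78) and KIF11 (-1.6). The values closest to shControl were those of CKS2, a small subunit of CDK1 complexes (-0.36), CDC25B (-0.38), INCENP and ECT2 (both -0.39). For 44 of 49 genes (89.8%) this array held the lowest level of all 12, which was so for 15% of all genes. Quantile normalization holds the median of all genes near 0 (0.014 here). The median change of 145 small noncoding RNA genes was -0.02 on this array. Of 103 other cell division genes measured on it, 93 were lower, with a median of -0.49. With shCREB3 the same line showed 24 genes lower and 25 higher. Values more than 0.5 below shControl with shCREB2 were seen for 3 genes in Jurkat (2.67% of all genes), 5 in Molt4 (3.48%) and 1 in the remaining line (0.353%). With shCREB3 they were seen for 1 gene in Jurkat (1.13% of all genes), 4 in Molt4 (1.7%), 7 in Nalm6 (2.91%) and 0 in the remaining line (0.112%).

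**Figure D2:**
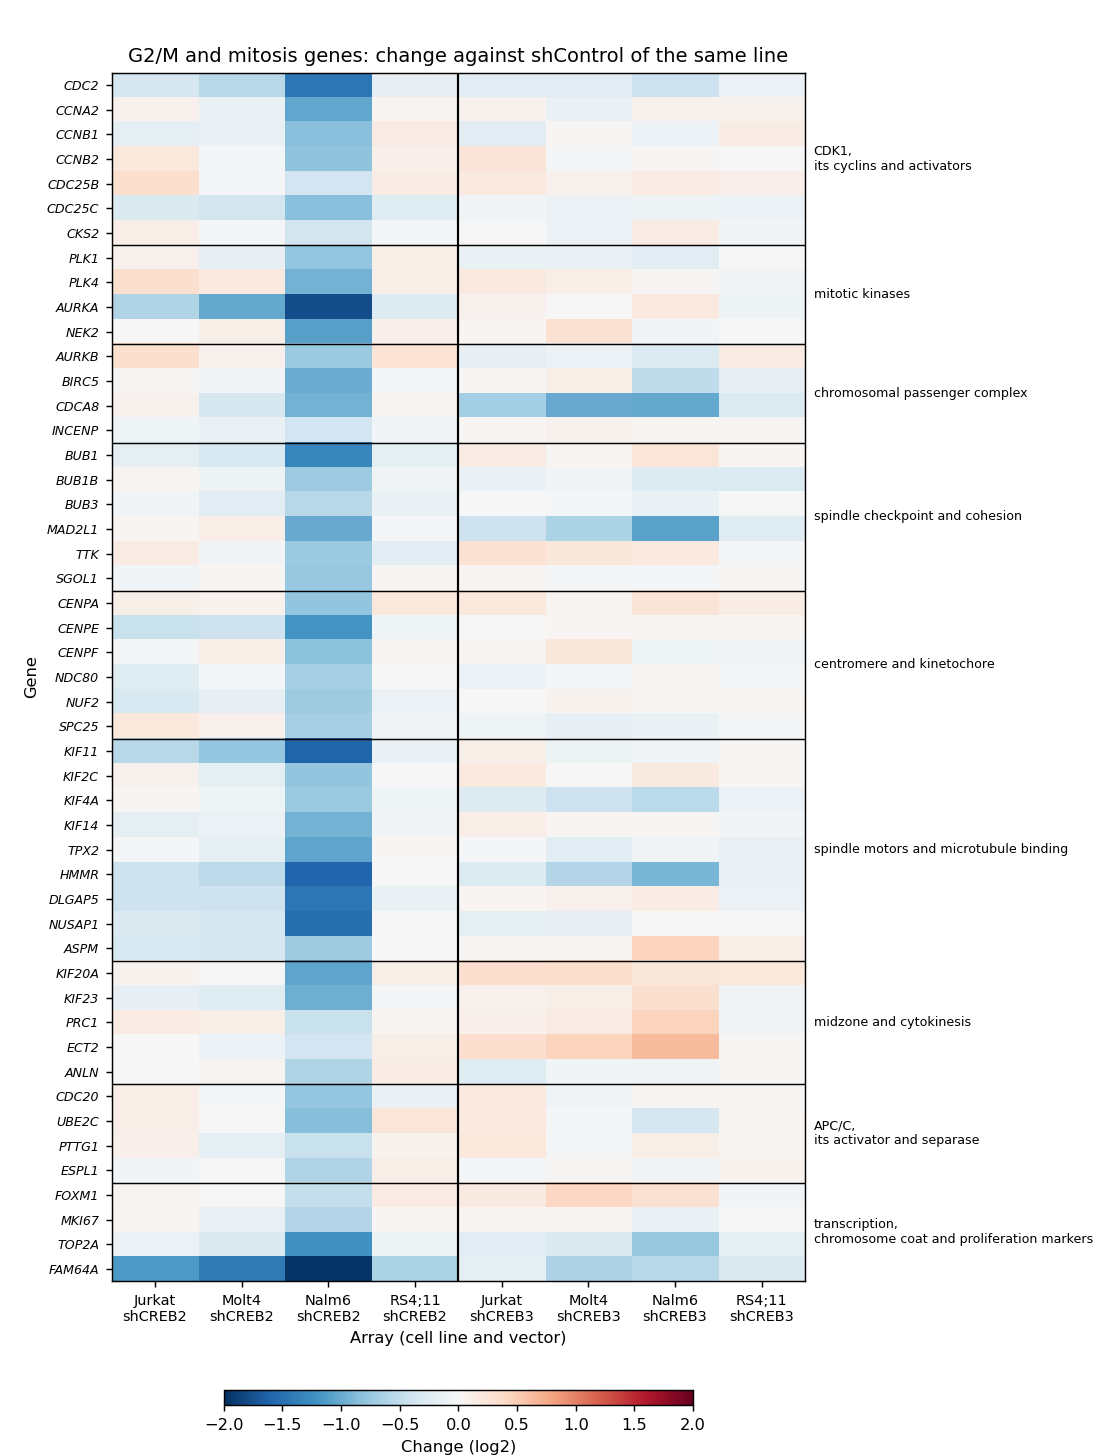
Change against shControl of the same line (log2, colour) for the 49 genes (rows, grouped by role) on the 8 shCREB arrays (columns, shCREB2 on the left and shCREB3 on the right). The Nalm6 shCREB2 column is blue throughout, and rows such as FAM64A, AURKA and KIF11 are blue in all shCREB2 columns, whereas CDCA8, MAD2L1 and HMMR are blue in all shCREB3 columns.

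The genes with the lowest values in Nalm6 were also among the lowest in the other lines. Over the 49 genes, the change with shCREB2 in Nalm6 and the mean change in Jurkat, Molt4 and RS4;11 had a Pearson correlation of 0.74 and a Spearman correlation of 0.5 (over all genes, Pearson 0.54). This is a description over genes, which are not independent, and the quantile normalization was shared by all arrays. The mean of the other 3 lines was -1.06 for FAM64A, -0.63 for AURKA, -0.49 for KIF11 and -0.35 for CDC2. Other genes that were lower by more than 1 in Nalm6 lay near shControl elsewhere: NEK2, a centrosomal kinase, changed by -1.08 in Nalm6 and by 0.07 on average in the others, and KIF20A, a midzone kinesin, by -1.06 and 0.06.

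**Figure D3:**
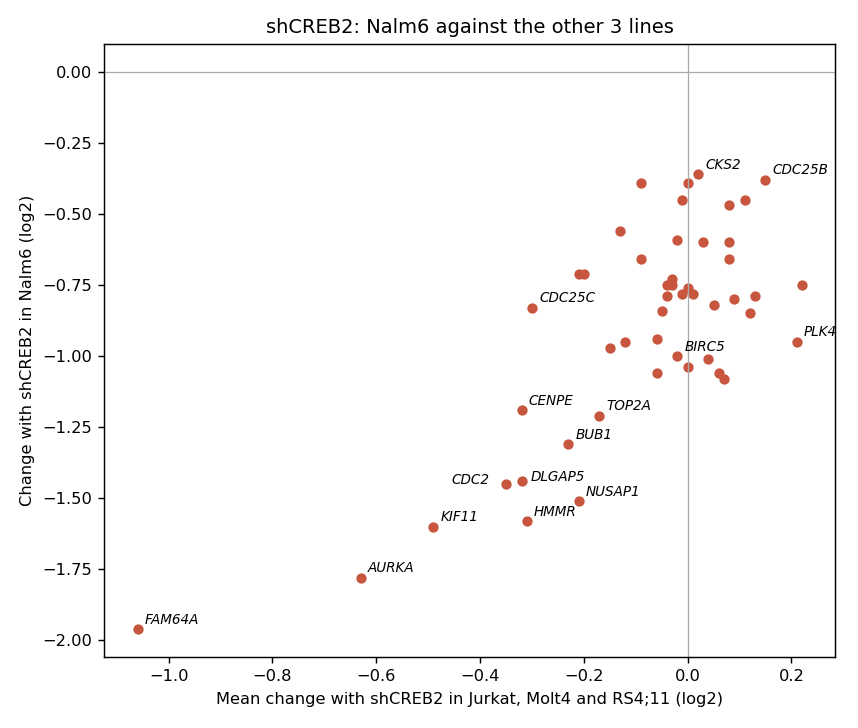
Change with shCREB2 in Nalm6 (log2, vertical axis) against the mean change with shCREB2 in Jurkat, Molt4 and RS4;11 (log2, horizontal axis), 1 point per gene for the 49 genes. FAM64A, AURKA and KIF11 are low on both axes, while most genes sit near 0 on the horizontal axis and between -0.36 and -1.08 on the vertical axis.

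Averaged over both shRNAs, 1 of the 49 genes was lower and 0 were higher past the test, against 0.778% of all genes lower and 0.313% higher. The gene was FAM64A. At an unadjusted p under 0.05, 15 of 49 genes (30.6%) were lower, against 10.6% of all genes, and 16 (32.7%) changed in either direction, against 22% of all genes. The median change of the 49 genes was -0.12, and -0.02 without the shCREB2 array of Nalm6. Without that array 0 of the 49 genes passed this test, and 0 of all 12465 genes did. The same was so without the line Jurkat or the line Molt4, so these zeros are not particular to the 49 genes. Without the whole line Nalm6 the call of FAM64A stayed (-0.71, adjusted p = 0.026), with 1.32% of all genes lower, and without RS4;11 3 genes were lower (AURKA, CDCA8 and FAM64A), with 2.28% of all genes. Lower values on all 8 shCREB arrays were found for 5 genes (10.2%, against 3.62% of all genes), namely CDC2, CDC25C, HMMR, TOP2A and FAM64A, and higher values on all 8 for 0 genes (4.81% of all genes).

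With shCREB2, 5 of the 49 genes (10.2%) fell and 0 rose, against 4.28% and 3.83% of all genes. Lower values in all 4 lines were seen for 15 genes (30.6%, against 14.1%), and the same 15 genes were lower on the 3 arrays other than Nalm6 (against 19.3% of all genes). Without the Nalm6 array the median of the 49 genes moved from -0.22 to -0.04, whereas 6 genes fell, against 4.03% of all genes: the 5 named first and CENPE. At an unadjusted p under 0.05, 16 genes (32.7%) were lower with shCREB2, against 11.7% of all genes. Without the line Jurkat or the line Molt4, with 9 arrays left, 0 of the 49 genes and 0 of all genes were past the test. Without the line Nalm6 7 of the 49 genes were lower (3.9% of all genes), and without RS4;11 also 7 (4.57% of all genes). With shCREB3, 1 gene fell (2.04%, against 1.17%) and 0 rose (against 0.449%), and 6 (12.2%) were lower at an unadjusted p under 0.05, against 9.03% of all genes. Without the Nalm6 shCREB2 array 5 genes were lower and 1 was higher with shCREB3, against 3.82% and 2.87% of all genes. With shCREB3, 12 genes (24.5%, against 16.3% of all genes) were lower in all 4 lines, among them CDCA8, MAD2L1 and KIF4A, a chromosome-bound kinesin, and 10 (20.4%, against 17.1%) were higher in all 4, among them KIF20A, CENPA and ASPM. Both shRNAs were compared with the same 4 control arrays, so their values are set side by side below and the difference between them was tested directly.

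**Figure D4:**
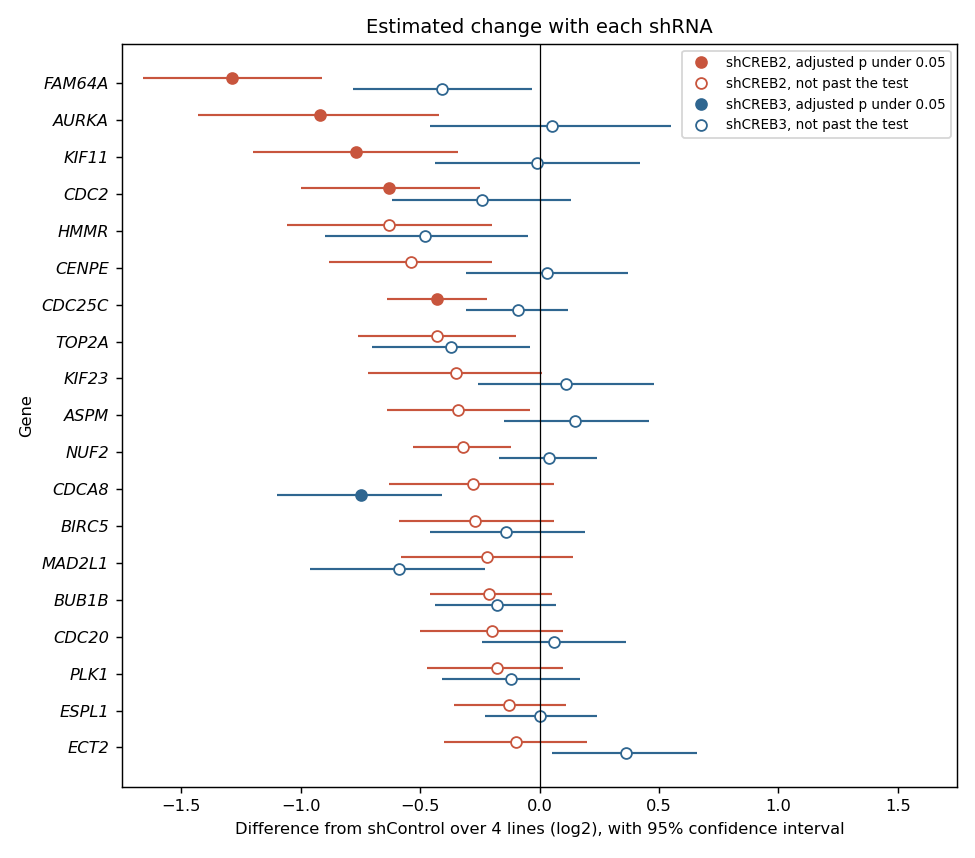
Difference from shControl over the 4 lines (log2, horizontal axis) with its 95% confidence interval for 19 genes (vertical axis), shCREB2 in red and shCREB3 in blue. Filled points have an adjusted p under 0.05: FAM64A, AURKA, KIF11, CDC2 and CDC25C with shCREB2, and CDCA8 with shCREB3.

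FAM64A (now PIMREG) encodes a protein that accumulates in dividing cells and is degraded through the APC/C. Levels are log2 signals and are given for shControl, shCREB2 and shCREB3 in this order. For FAM64A they were 8.73, 7.58 and 8.55 in Jurkat, 8.59, 7.18 and 7.98 in Molt4, 9.11, 7.15 and 8.56 in Nalm6, and 9.21, 8.58 and 8.92 in RS4;11. In each line the shCREB2 array was the lowest and the shCREB3 array lay between it and the control, and the 4 shCREB2 levels did not overlap with the 4 control levels. All shCREB2 levels below all control levels was found for 3 of the 49 genes (6.12%, against 1.85% of all genes), the others being CENPE and DLGAP5. FAM64A fell by 1.29 with shCREB2 (SE 0.17, 41% of control, adjusted p = 0.00672, limma), and by 1.09 without the Nalm6 array (adjusted p = 0.00333). With shCREB3 the difference was -0.41 (SE 0.17, adjusted p = 0.246), and the 2 shRNAs differed by 0.88 (adjusted p = 0.01), or by 0.68 without that array (adjusted p = 0.00707). The call with shCREB2 held in 20 of 26 alternatives, counting the paired t-test at its unadjusted p. The call was lost without the line Jurkat or the line Molt4 (adjusted p = 0.111 and 0.127). Averaged over both it was -0.85 (SE 0.12, adjusted p = 0.0461), and without the Nalm6 shCREB2 array -0.67 (adjusted p = 0.0796). It had a single probe.

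Of the 7 measured genes for CDK1, its cyclins and activators, CDC2 and CDC25C fell with shCREB2. CDC2 encodes CDK1, the kinase that drives entry into mitosis. The levels of CDC2 were 10.88, 10.54 and 10.67 in Jurkat, 10.43, 9.87 and 10.2 in Molt4, 10.36, 8.9 and 9.93 in Nalm6, and 10.57, 10.42 and 10.46 in the other BCP-ALL line. The order was shCREB2 below shCREB3 below shControl in every line, though the lines differed enough for the groups to overlap. CDC2 fell by 0.63 with shCREB2 (SE 0.17, adjusted p = 0.0499, limma), just inside the threshold, and by 0.38 without the Nalm6 array (adjusted p = 0.0189). The call was lost without the line Jurkat or the line Molt4 (adjusted p = 0.153 and 0.22), and it held in 6 of 26 alternatives. A further probe of CDC2 changed by -0.41 on average.

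CDC25C encodes a phosphatase that activates CDK1 at the start of mitosis. The levels of CDC25C were 8.22, 7.93 and 8.16 in Jurkat, 8.29, 7.92 and 8.18 in Molt4, 7.75, 6.92 and 7.65 in Nalm6, and 8.06, 7.81 and 7.95 in RS4;11. The shCREB2 array was the lowest in every line. Its probe was detected on 11 of 12 arrays and was not detected on the Nalm6 shCREB2 array, so its level there, 6.92, is only an upper bound. CDC25C fell by 0.43 with shCREB2 (SE 0.1, adjusted p = 0.0255, limma), and its difference was -0.3 without that array (adjusted p = 0.0106). The call held in 12 of 26 alternatives, counting the paired t-test at its unadjusted p, and was lost without Jurkat or Molt4 (adjusted p = 0.124 and 0.159). The weaker CDC25C probes changed by -0.29 and -0.12. The cyclins lay near shControl in the other lines. Outside Nalm6, CCNA2, CCNB1 and CCNB2 changed on average by 0.00, -0.05 and 0.09 with shCREB2, beside -1.04, -0.84 and -0.8 in Nalm6. The levels of CKS2, the gene closest to shControl in Nalm6, were 12.21, 12.34 and 12.21 in Jurkat, 12.09, 12.05 and 11.97 in Molt4, 12.03, 11.67 and 12.19 in Nalm6, and 12.06, 12.02 and 12.01 in the other BCP-ALL line. Its lowest array was again that of shCREB2 in Nalm6. The levels of CDC25B were 10.23, 10.55 and 10.42 in Jurkat, 10.54, 10.51 and 10.62 in Molt4, 9.02, 8.64 and 9.18 in Nalm6, and 10.14, 10.29 and 10.24 in the other BCP-ALL line. CDC25B, the phosphatase that acts earlier in G2, lay at 0.02 (SE 0.1) with shCREB2 and was the highest of the 49 genes in Jurkat (0.32).

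Among the mitotic kinases AURKA alone fell. Aurora A matures the centrosomes and builds the spindle poles. The levels of AURKA were 10.05, 9.45 and 10.15 in Jurkat, 10.1, 9.08 and 10.1 in Molt4, 10.04, 8.25 and 10.23 in Nalm6, and 10.35, 10.07 and 10.25 in the other BCP-ALL line. The shCREB2 array was the lowest in every line and the shCREB3 array stayed within 0.2 of the control. AURKA fell by 0.92 with shCREB2 (SE 0.23, 52.8% of control, adjusted p = 0.0368, limma), and by 0.61 without the Nalm6 array (adjusted p = 0.0176). The call held in 10 of 26 alternatives and was lost without Jurkat or Molt4 (adjusted p = 0.141 and 0.214). AURKA differed by 0.05 with shCREB3 (95% confidence interval -0.46 to 0.55). The difference between the shRNAs was 0.97 (SE 0.23, adjusted p = 0.0208), and 0.66 without the Nalm6 array (adjusted p = 0.00808). A further AURKA probe gave -0.92 with shCREB2 and 0.1 with shCREB3. The levels of PLK1, the kinase of mitotic entry and exit, were 8.48, 8.57 and 8.35 in Jurkat, 8.23, 8.06 and 8.1 in Molt4, 8.44, 7.66 and 8.22 in Nalm6, and 8.29, 8.4 and 8.27 in the other BCP-ALL line. PLK1 lay at -0.18 with shCREB2 and -0.12 with shCREB3 (SE 0.13 for both), and at 0.00 with shCREB2 without the Nalm6 array. PLK4 had levels of 9.85, 10.17 and 10.05 in Jurkat, 10.47, 10.66 and 10.62 in Molt4, 10.17, 9.22 and 10.2 in Nalm6, and 9.75, 9.85 and 9.69 in the other BCP-ALL line. PLK4, which starts centriole duplication, was the highest of the 49 genes with shCREB2 in Molt4 (0.19) and lay at -0.95 in Nalm6.

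The chromosomal passenger complex, made of Aurora B (AURKB), INCENP, survivin (BIRC5) and borealin (CDCA8), corrects faulty attachments of chromosomes to the spindle. CDCA8 was the single gene of the 49 that fell with shCREB3. The levels of CDCA8 were 9.78, 9.86 and 9.1 in Jurkat, 9.9, 9.58 and 8.89 in Molt4, 10.25, 9.31 and 9.22 in Nalm6, and 9.76, 9.81 and 9.48 in the other BCP-ALL line. All 4 shCREB3 levels lay below all 4 control levels, a pattern that was not counted over all genes. Below the control of the same line in all 4 lines with shCREB3 were 16.3% of all genes. CDCA8 fell by 0.75 with shCREB3 (SE 0.16, 59.4% of control, adjusted p = 0.0472, limma), and the same difference had an adjusted p of 0.00758 without the Nalm6 shCREB2 array. The call held in 8 of 26 alternatives. Without Jurkat or without Molt4 the difference was -0.77 and -0.66 (adjusted p = 0.26 and 0.403), and without RS4;11 -0.91 (adjusted p = 0.0348). With shCREB2 it lay at -0.28 (adjusted p = 0.286), most of which came from Nalm6, since the mean of the other 3 lines was -0.06.

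The partners of CDCA8 gave no call. The levels of BIRC5 were 10.82, 10.83 and 10.85 in Jurkat, 10.84, 10.79 and 10.95 in Molt4, 10.04, 9.04 and 9.53 in Nalm6, and 10.33, 10.3 and 10.16 in the other BCP-ALL line. BIRC5 lay at -0.14 with shCREB3 (SE 0.15), and Nalm6 was the line furthest below its control. The levels of AURKB were 10.04, 10.36 and 9.87 in Jurkat, 9.98, 10.07 and 9.87 in Molt4, 10.06, 9.31 and 9.79 in Nalm6, and 10.04, 10.32 and 10.2 in the other BCP-ALL line. AURKB lay at -0.1 (SE 0.15) and INCENP at 0.04 (SE 0.07) with shCREB3. AURKB was the highest of the 49 genes with shCREB2 in RS4;11 (0.28). The 4 subunits thus gave 1 call with shCREB3 and 0 with shCREB2.

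In the spindle checkpoint, MAD2L1 (MAD2, the protein that blocks CDC20) showed a pattern like that of CDCA8. The levels of MAD2L1 were 10.67, 10.72 and 10.25 in Jurkat, 11.09, 11.22 and 10.45 in Molt4, 10.75, 9.74 and 9.69 in Nalm6, and 10.99, 10.95 and 10.74 in the other BCP-ALL line. The shCREB3 array was the lowest in every line, and the shCREB2 array was low in Nalm6 alone. The difference with shCREB3 was -0.59 (SE 0.16, adjusted p = 0.0997, limma), which missed the threshold, and it passed without the Nalm6 shCREB2 array (adjusted p = 0.0163). The weaker MAD2L1 probe changed by -0.19 with shCREB3. The levels of BUB1B (BUBR1), a partner of MAD2 in the checkpoint, were 8.03, 8.09 and 7.89 in Jurkat, 8.17, 8.08 and 8.12 in Molt4, 8.26, 7.54 and 7.98 in Nalm6, and 8.16, 8.1 and 7.9 in the other BCP-ALL line. BUB1B lay below its control on 7 of 8 arrays, with differences that missed the test (-0.21 with shCREB2 and -0.18 with shCREB3, SE 0.12 for both). BUB1, the checkpoint kinase at the kinetochore, was lower in all 4 lines with shCREB2 and higher in all 4 with shCREB3, and neither change nor the difference of 0.62 between the shRNAs passed the test (adjusted p = 0.0522). The 6 genes of checkpoint and cohesion gave 0 calls with either shRNA.

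Among the 6 centromere and kinetochore genes, 0 were past the test against shControl and 2 differed between the shRNAs. CENPE is the kinesin that carries chromosomes to the spindle equator. The levels of CENPE were 8.95, 8.5 and 8.95 in Jurkat, 8.81, 8.4 and 8.86 in Molt4, 9.02, 7.82 and 9.06 in Nalm6, and 8.9, 8.81 and 8.94 in the other BCP-ALL line. With shCREB3 every line stayed within 0.05 of its control. CENPE lay at -0.54 with shCREB2 (SE 0.15, adjusted p = 0.0596, limma), and at -0.32 without the Nalm6 array (adjusted p = 0.029). It was 0.57 higher with shCREB3 than with shCREB2 (SE 0.15, adjusted p = 0.0343), and 0.35 without the Nalm6 shCREB2 array (adjusted p = 0.0118). The levels of NUF2, a subunit of the NDC80 complex that binds microtubules, were 8.47, 8.17 and 8.49 in Jurkat, 8.2, 8.03 and 8.27 in Molt4, 8.33, 7.62 and 8.35 in Nalm6, and 8.43, 8.32 and 8.47 in the other BCP-ALL line. The shCREB2 array was the lowest in every line. NUF2 was 0.36 higher with shCREB3 than with shCREB2 (SE 0.09, adjusted p = 0.0311), and 0.23 without the Nalm6 shCREB2 array (adjusted p = 0.0223). NDC80 itself lay at -0.66 in Nalm6 and at -0.09 on average in the other lines with shCREB2.

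**Figure D5:**
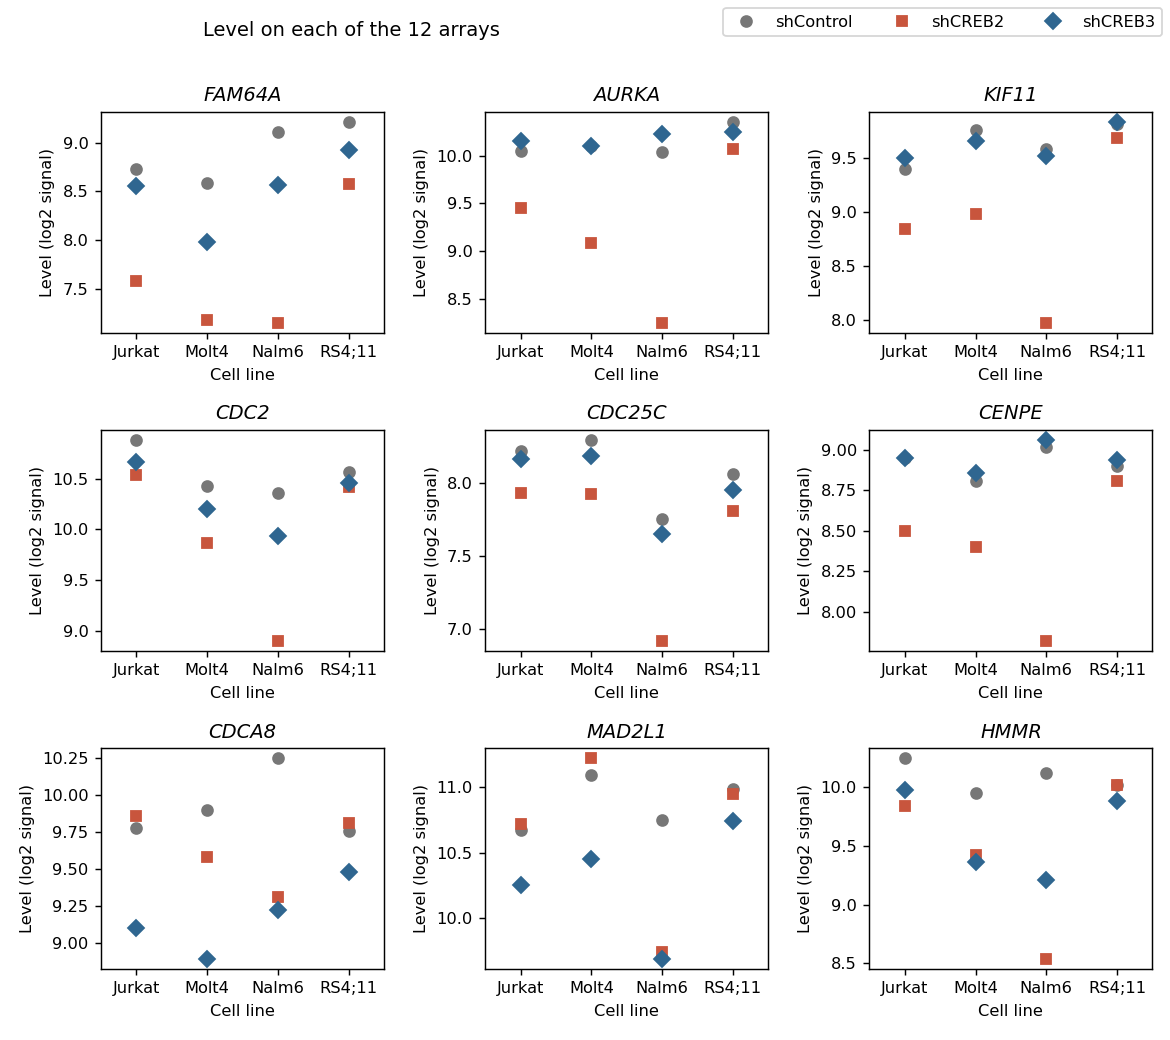
Level (log2 quantile-normalized signal, vertical axes) of 9 genes in the 4 cell lines (horizontal axes), with 1 point per array for shControl (grey circles), shCREB2 (red squares) and shCREB3 (blue diamonds). The shCREB2 array is lowest in every line for FAM64A, AURKA, KIF11, CDC2, CDC25C and CENPE, and the shCREB3 array is lowest in every line for CDCA8 and MAD2L1.

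Among 9 spindle motors and microtubule-binding proteins, KIF11 fell with shCREB2. KIF11 (Eg5) pushes the spindle poles apart. The levels of KIF11 were 9.4, 8.84 and 9.5 in Jurkat, 9.76, 8.98 and 9.66 in Molt4, 9.58, 7.98 and 9.52 in Nalm6, and 9.81, 9.68 and 9.83 in the other BCP-ALL line. The shCREB2 array was the lowest in each line, with the smallest gap in RS4;11. KIF11 fell by 0.77 with shCREB2 (SE 0.19, 58.8% of control, adjusted p = 0.0403, limma), and differed by -0.5 without the Nalm6 array (adjusted p = 0.0185). The call held in 10 of 26 alternatives and was lost without Jurkat or Molt4 (adjusted p = 0.158 and 0.211). With shCREB3 it lay at -0.01 (95% confidence interval -0.44 to 0.42), and the shRNAs differed by 0.76 (adjusted p = 0.0287), or by 0.49 without the Nalm6 array (adjusted p = 0.0119). A further KIF11 probe gave -0.75 with shCREB2 and 0.01 with shCREB3.

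HMMR, a microtubule-binding protein of the spindle, was lower on 8 of 8 arrays. The levels of HMMR were 10.24, 9.84 and 9.97 in Jurkat, 9.95, 9.42 and 9.36 in Molt4, 10.12, 8.54 and 9.21 in Nalm6, and 10.01, 10.01 and 9.88 in the other BCP-ALL line. The last of these lines lay within 0.13 of its control, and the other 3 lay further below theirs with both shRNAs. HMMR lay at -0.63 with shCREB2 (SE 0.19, adjusted p = 0.0721, limma) and at -0.48 with shCREB3 (SE 0.19, adjusted p = 0.233), the latter past the test without the Nalm6 shCREB2 array (adjusted p = 0.0321). DLGAP5 and NUSAP1, which bundle spindle microtubules, lay at -0.6 and -0.53 with shCREB2 (adjusted p = 0.0976 and 0.165). They had changes of -1.44 and -1.51 in Nalm6. The levels of ASPM, which acts at the spindle poles, were 10.07, 9.76 and 10.1 in Jurkat, 9.96, 9.62 and 9.99 in Molt4, 10.13, 9.43 and 10.58 in Nalm6, and 9.86, 9.87 and 9.98 in the other BCP-ALL line. The shCREB3 array was the highest in every line. ASPM was 0.49 higher with shCREB3 than with shCREB2 (SE 0.14, adjusted p = 0.0365), and 0.32 without the Nalm6 shCREB2 array (adjusted p = 0.0367).

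The 5 genes of the midzone and cytokinesis gave 0 calls against shControl, and 1 of them, ECT2, differed between the shRNAs. ECT2 activates RhoA to form the contractile ring. The levels of ECT2 were 9.62, 9.61 and 9.96 in Jurkat, 9.32, 9.2 and 9.76 in Molt4, 9.2, 8.81 and 9.83 in Nalm6, and 8.92, 9.04 and 8.94 in RS4;11. ECT2 was the highest of the 49 genes with shCREB3 in Jurkat, Molt4 and Nalm6 (0.34, 0.44 and 0.63) and lay at 0.02 in RS4;11. It lay at 0.36 with shCREB3 (SE 0.14, adjusted p = 0.206, limma) and was 0.46 higher than with shCREB2 (adjusted p = 0.0485), and 0.31 higher without the Nalm6 shCREB2 array (adjusted p = 0.0797). The levels of KIF20A were 9.47, 9.54 and 9.8 in Jurkat, 9.31, 9.3 and 9.66 in Molt4, 9.49, 8.43 and 9.72 in Nalm6, and 9.54, 9.65 and 9.76 in the other BCP-ALL line. The shCREB3 level lay above the control in all 4 lines, with a difference of 0.28 that missed the test (adjusted p = 0.459, limma), and KIF20A passed as higher when the Nalm6 shCREB2 array was left out. The levels of KIF23, the kinesin of the centralspindlin complex, were 9.13, 8.97 and 9.22 in Jurkat, 8.9, 8.65 and 9.01 in Molt4, 8.96, 8 and 9.28 in Nalm6, and 8.7, 8.66 and 8.63 in the other BCP-ALL line. KIF23 lay at -0.35 with shCREB2 (SE 0.17) and 0.11 with shCREB3.

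The 4 genes around the APC/C gave 0 calls with either shRNA. The levels of CDC20, the activator of the APC/C that the checkpoint inhibits, were 12.3, 12.43 and 12.5 in Jurkat, 12.21, 12.18 and 12.15 in Molt4, 12.23, 11.45 and 12.29 in Nalm6, and 11.94, 11.81 and 11.97 in the other BCP-ALL line. The estimate for CDC20 was -0.2 with shCREB2 (SE 0.13) and 0.06 with shCREB3. The levels of ESPL1 (separase, the protease that cuts cohesin) were 8.08, 8.02 and 8.04 in Jurkat, 8.19, 8.2 and 8.23 in Molt4, 8.43, 7.84 and 8.37 in Nalm6, and 8.06, 8.2 and 8.13 in the other BCP-ALL line. On the shCREB2 array of Nalm6 both genes had their lowest level of the 12. ESPL1 lay at -0.13 with shCREB2 (SE 0.11) and 0.00 with shCREB3. UBE2C, the ubiquitin-conjugating enzyme of the APC/C, and PTTG1 (securin) changed on average by 0.12 and -0.01 in the 3 lines other than Nalm6 with shCREB2, and by -0.85 and -0.45 in Nalm6.

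Of the proliferation genes, TOP2A, which untangles DNA before anaphase, was lower on 8 of 8 arrays. The levels of TOP2A were 11.6, 11.47 and 11.36 in Jurkat, 11.77, 11.49 and 11.48 in Molt4, 11.7, 10.49 and 10.94 in Nalm6, and 11.72, 11.62 and 11.53 in the other BCP-ALL line. With both shRNAs the lowest array was that of Nalm6, and the other lines lay within 0.3 of their controls. TOP2A lay at -0.43 with shCREB2 and -0.37 with shCREB3 (SE 0.15 for both, adjusted p = 0.106 and 0.236, limma), and the shCREB3 change passed without the Nalm6 shCREB2 array (adjusted p = 0.0302). MKI67, the gene of the Ki-67 proliferation marker, and FOXM1, a transcription factor of late cell cycle genes, changed on average by -0.02 and 0.08 outside Nalm6 with shCREB2, and by -0.59 and -0.47 in Nalm6.

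Compared directly, 8 of the 49 genes (16.3%) were higher with shCREB3 than with shCREB2 and 0 were lower, against 7.04% and 7.64% of all genes. They were AURKA, FAM64A, KIF11, CENPE, ASPM, ECT2, NUF2 and CDC25C, with differences from 0.34 (CDC25C) to 0.97 (AURKA), or 0.21 and 0.66 for these genes without the Nalm6 shCREB2 array. In all 4 lines the shCREB3 level was above the shCREB2 level for 17 genes (34.7%, against 16.2% of all genes), and in the 3 lines other than Nalm6 for 17 (22.4% of all genes). At an unadjusted p under 0.05, 20 genes (40.8%) differed, against 31% of all genes. The median difference was 0.21, and 0.03 without the Nalm6 shCREB2 array. Without that array 10 genes (7.57% of all genes) were higher and 3 (7.62% of all genes) lower with shCREB3, the lower ones being AURKB, CDCA8 (-0.64, adjusted p = 0.00773) and MAD2L1 (-0.56, adjusted p = 0.0152, limma). Leaving out Jurkat or Molt4 as a line left 0 of the 49 genes and 0 of all genes past this test.

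The change was next compared between the 2 T-ALL and the 2 BCP-ALL lines, for both shRNAs averaged. Of the 49 genes 0 were past the test in either direction (0% of all genes, limma). At an unadjusted p under 0.05 there were 2 (4.08%, against 4.33%): PLK4 with a difference of 0.43 (SE 0.16) and TTK, a checkpoint kinase, with 0.35 (SE 0.11), both with an adjusted p of 0.974. The sign means a higher change in the T-ALL lines. The median difference was 0.18, and -0.03 without the Nalm6 shCREB2 array. With 2 lines per lineage, 1 of which had the array that stood apart, the lineage and the line cannot be told apart. When the shControl array of RS4;11, and with it that line, was left out, 9 genes had a higher change in the T-ALL lines than in the BCP-ALL line that remained, Nalm6 (0.81% of all genes), and the median was 0.42. Among the 9 were PLK4 and KIF20A, which in that line lay at -0.95 and -1.06 with shCREB2 and at 0.02 and 0.23 with shCREB3.

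The levels themselves also differed between lines. Over the 12 arrays the spread between the highest and the lowest level was smallest for BUB3 (0.57) and largest for AURKA (2.09), and without the Nalm6 shCREB2 array it was smallest for MKI67 (0.31) and largest for FAM64A (2.02). MKI67 also had the lowest median level of the 49 genes (7.6), where nearness to background can narrow a spread. CDC25B lay between 8.64 and 9.18 on the Nalm6 arrays and between 10.14 and 10.62 on the others, without overlap. CENPA, the centromeric histone, lay between 7.95 and 8.99 in Nalm6 and between 9.33 and 9.82 elsewhere. ANLN, a scaffold of the contractile ring, lay between 7.41 and 7.57 in RS4;11 and between 7.76 and 8.4 elsewhere. How many of all genes set 1 line apart in this way was not counted, so the pattern is not shown to be particular to these genes. Between the lineages 0 of the 49 genes differed in level past the test (0.674% of all genes were higher and 0.377% lower in T-ALL), and 5 (10.2%, against 17.1%) had an unadjusted p under 0.05. BIRC5 had the largest of these 5 differences, 0.95 higher in T-ALL (SE 0.28, adjusted p = 0.241, limma), with 10.79 to 10.95 in the T-ALL lines, 10.16 to 10.33 in RS4;11 and 9.04 to 10.04 in Nalm6. This test took the mean of the 3 arrays of each line, so Nalm6 includes its shCREB2 array. On the shControl arrays BIRC5 lay at 10.82 in Jurkat, 10.84 in Molt4, 10.04 in Nalm6 and 10.33 in RS4;11. The median difference of the 49 genes was 0.19, and 0.02 with the shControl arrays only. There 0 of the 49 genes were past the test (0.979% of all genes were higher and 0.546% lower).

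Of a wider list of 115 other cell division genes 103 were tested. With shCREB2 11 of them fell and 0 rose (4.28% and 3.83% of all genes), and with shCREB3 1 fell (1.17% of all genes). With shCREB3 14 were higher and 2 lower than with shCREB2 (7.04% and 7.64% of all genes). Without the Nalm6 shCREB2 array 12 fell and 1 rose with shCREB2 (4.03% and 2.9% of all genes), and 7 fell with shCREB3 (3.82%). Then 16 were higher and 8 lower with shCREB3 than with shCREB2 (7.57% and 7.62% of all genes). The median with shCREB2 moved from -0.14 to -0.02. ZW10, which recruits dynein to kinetochores, fell by 1.1 with shCREB2 (SE 0.13, adjusted p = 0.00582, limma), and by 0.96 without that array, and was lower on 8 of 8 arrays. CKAP2, a spindle protein, fell by 0.71 with shCREB2 (adjusted p = 0.0128), and differed by -0.55 without that array (adjusted p = 0.00516). TFDP1, the partner of E2F factors, fell by 0.58 with shCREB3 (SE 0.1, adjusted p = 0.0292) and was 0.34 lower with shCREB3 than with shCREB2 (adjusted p = 0.0421). Without the Nalm6 shCREB2 array these differences were -0.58 and -0.36 (adjusted p = 0.0103 and 0.0439). RBBP4, a subunit of MuvB, was 0.69 higher with shCREB3 than with shCREB2 (SE 0.1, adjusted p = 0.00494), and 0.61 without that array (adjusted p = 0.00426).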

How the data were processed

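Total RNA of 12 cultures was hybridized to Illumina HumanHT-12 v4 BeadChips. The authors deposited probe signals (intensity, exported from GenomeStudio without normalization), a detection p-value per probe and array, and a table of quantile-normalized gene means. The deposited gene means are on a natural log scale, although the methods name log2. Decimal marks were missing from 98.1% of the signal cells. Their places were recovered by matching each gene's mean to the deposited normalized value, within a tolerance of 0.02 on the natural log scale, and 44 genes with 125 probes whose place stayed unsure were left out, none of them among the 49 genes. A mark put in the wrong place would change a value by orders of magnitude.

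The restored intensities were quantile-normalized and log2-transformed, without background subtraction. A probe counted as detected at a detection p-value under 0.01. Probes detected on 4 or more of the 12 arrays were kept, and the brightest of them stood for its gene. A signal near background understates a change. Of the 49 genes, 20 had more than 1 detected probe, and their probes did not differ in sign for both shRNAs averaged or for shCREB2. With shCREB3 probes of some genes did differ in sign, with small changes. Among these were KIF11 (-0.01 and 0.01), KIF23 (0.11 and -0.02), PTTG1 (0.09 and -0.02), DLGAP5 (0.04 and -0.06) and SGOL1 (0.01 and -0.06).

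The tests used limma 3.58.1 (lmFit, then eBayes, run in R 4.3.3), with Benjamini-Hochberg adjustment over 12465 genes. For both shRNAs averaged and for the change between the lineages, 1 difference per line was tested. For the level between the lineages it was the mean of the 3 arrays of each line. The single shRNAs and their difference came from 1 fit of the 12 arrays with the cell line as block. The arrays of a line are paired because they come from the same line. The fits were tested on simulated data. For both shRNAs averaged and for the lineages, p-values measure the spread between lines. For the single shRNAs and their difference, the spread is pooled over the 3 vectors. Leaving out an shCREB2 array thus also moves the p-values of shCREB3, even where the difference itself stays the same. The precision of all p-values is limited by the number of arrays. Promoter windows were searched and figures drawn with Python 3.11.15, pandas 2.3.3 and matplotlib 3.10.9.

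Levels on every array are given for genes past a test, the 2 genes of each role group with the smallest p-value for both shRNAs averaged, and the largest fall and rise in each line with each shRNA. Any of the 49 genes may be named, and the others were named after their values were seen. The genes, lists and tests were chosen with earlier results of these data known. Alternatives were median scaling, the deposited normalized values, normexp background, other detection filters, the mean of probes, no replicate block, only the 8 arrays compared, the methods' paired t-test, and leaving out each array and line. For the level between the lineages the shControl arrays alone were also used.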

Additional observations from a re-analysis of the deposited data

Results flagged for a closer look

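Among 40 sets of 4 changes (the 19 genes with values on every array and the median over the 49 genes, with each shRNA), 6 held a line far from the other 3. By chance about 1 in 20 independent sets does. These sets share arrays and the median includes the same genes, so that rate is no baseline for the count. With shCREB2 the line was Nalm6 in each case: BIRC5 at -1, MAD2L1 at -1.01, TOP2A at -1.21 and the median over the 49 genes at -0.8. With shCREB3, TOP2A stood apart in Nalm6 at -0.76. CENPE stood apart with shCREB3 in Jurkat at 0.01, where the whole range over the 4 lines was under 0.05, so the gap itself is small. For both shRNAs averaged, BIRC5 lay above shControl in both T-ALL lines and below it in both BCP-ALL lines. The difference of 0.46 did not pass the limma test. With shCREB2 and shCREB3 its changes were 0.02 and 0.03 in Jurkat and -0.05 and 0.11 in Molt4. They were -0.04 and -0.17 in RS4;11, and -1 and -0.51 in Nalm6, so the large changes were those of Nalm6.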

How the results depend on the processing

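The number of the 49 genes past the test depended on the processing, and several calls had adjusted p-values close to 0.05. The cause of each change was not tested. For both shRNAs averaged, the count of lower genes was 0 in place of 1 with the deposited normalized values, normexp background or the mean of probes. In each of these settings 0 of all 12465 genes passed, so these zeros are not particular to the 49 genes. For shCREB2 it was 3 with the deposited values (3.8% of all genes lower), 1 with normexp (3.32%) and 2 with no filter (1.29%), in place of 5 (4.28%). For shCREB3 it was 0 in place of 1 (1.17% of all genes lower) with median scaling (0.842%), the deposited values (0.762%), normexp (0.554%) or no filter (0.284%). The genes higher with shCREB3 than with shCREB2 were 5 with normexp (6.58% of all genes), 6 with the deposited values (6.57%) and 3 with no filter (2.28%). They were 11 with median scaling (10%) and 9 with detection on all 12 arrays (9.2%), in place of 8 (7.04%). Under median scaling the median with shCREB3 was 0.06, and 18 genes were lower on the Molt4 shCREB3 array in place of 26.

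With no replicate block, so that the lines were not paired, 0 of the 49 genes were past the test in each of these comparisons, and 0 to 4 of all genes were. With only the 8 arrays compared, 0 of the 49 genes and 0 of all genes fell with shCREB2. With shCREB3 2 rose and 6 fell (2.98% and 3.72% of all genes), and 1 was higher with shCREB3 than with shCREB2 (1.83%). The methods' paired t-test called 0 of the 49 genes after Benjamini-Hochberg adjustment, and 0 to 1 of all genes. Unadjusted, it called 1 higher and 2 lower for both shRNAs (7.27% and 6.75% of all genes) and 2 lower for shCREB2 (6.36%). For shCREB3 it called 4 higher and 8 lower (7.57% and 8.19% of all genes).

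Leaving out single arrays or lines gave 0 to 3 lower genes for both shRNAs (0% to 2.28% of all genes), with medians of -0.22 to -0.02. For shCREB2 it gave 0 to 9 lower genes (0% to 6.39% of all genes), with medians of -0.3 to -0.03. Without any 1 array of Jurkat or Molt4, or the Nalm6 shControl array, 0 to 2 genes fell with shCREB2 (0.241% to 2.74% of all genes). For shCREB3 there were 0 to 1 higher and 0 to 5 lower genes, with medians of -0.08 to 0.11. Of all genes 0% to 2.87% were higher and 0% to 3.82% lower. Between the shRNAs 0 to 13 genes were higher and 0 to 3 lower (0% to 8.74% and 0% to 9% of all genes), with medians of 0.03 to 0.29. Between the lineages 0 to 9 genes had a higher change, with medians of -0.04 to 0.42. The difference of BUB1B between the shRNAs ranged from -0.14 (without the Nalm6 shCREB2 array) to 0.1, and that of ECT2 for both shRNAs from 0 (without the Nalm6 shCREB3 array) to 0.26. Leaving out each line for the level between lineages, where 0 genes passed, and the Nalm6 shCREB2 array for the other cell division genes was added after the data were seen.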
